A study of Mus musculus with 12 samples.

Results

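The comparison set mouse hepatocytes that made YAP S127A against wild type hepatocytes that made only green fluorescent protein (GFP). The former, here called Sox9-null, came from mice with both Sox9 alleles floxed that received Cre recombinase. GFP came with the YAP S127A virus and not with Cre, and loss of both alleles in the sorted cells was not measured here. The comparison took the 2 Sox9-null YAP libraries and the 2 wild type GFP libraries, 4 of the 12 libraries of the series. Genes were kept if their log2 value reached 1 in at least 2 of the 12 libraries, which left 10681 of 16116 genes. The title of the series puts the question as what Sox9 does in hepatocytes with active Yap. Control mice were wild type and received AAV2/8-TBG-GFP, an adeno-associated virus whose TBG promoter works in hepatocytes. Mice of the other group were Sox9 fl/fl and received AAV2/8-TBG-Cre together with AAV2/8-TBG-YAP S127A-P2A-GFP, so Cre recombinase, Sox9 deletion and mutant YAP all reached hepatocytes only after injection. Virus went into the retro-orbital vein at 3 weeks of age, and cells were sorted 3 weeks later for fluorescence, leaving out those with Epcam (a biliary marker) or CD45 (a leukocyte marker). The control received neither Cre nor YAP S127A, so the effects of Cre, of Sox9 loss and of YAP S127A cannot be told apart in this comparison. The other groups entered the filter and the fit, where the spread was estimated over all groups together, and served to test differences. Sox9 fl/+ mice with the same Cre and YAP S127A viruses formed the Sox9-heterozygous YAP group. The rest came from an experiment with floxed Mst1 and Mst2, sorted 4 weeks after injection. That experiment had its own GFP control, a Sox9-heterozygous group and a Sox9-null group.

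YAP is a transcriptional coactivator that the Hippo kinases Mst1/2 and Lats1/2 hold out of the nucleus by phosphorylation, and the S127A mutant lacks a main phosphorylation site of that control. In the nucleus YAP binds TEAD factors and raises genes of growth, cell division, cytoskeleton and matrix. Sox9 is a transcription factor of bile duct and progenitor cells that hepatocytes switch on when YAP is active.

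Levels are log2 CPM (read counts relative to the total of a library) as the authors deposited them, 1 library each, and changes are Sox9-null YAP minus control on the log2 scale with the SE of the fit. A gene was called at a limma adjusted p under 0.05. Of the 10681 genes, 760 were called (7.12%), 709 of them higher (6.64%) and 51 lower (0.477%). Counts of called list members below stand beside these shares, and nothing is read about a list from a single call. With 1 of the 4 libraries left out, 354 genes were called without the first control library, 470 without the second, 471 without the first Sox9-null library and 328 without the second. A set of 201 genes was called in all 5 fits, 190 higher (1.78%) and 11 lower (0.103%), and is here said to hold. Whether both libraries of a group are from different mice is not stated in the labels. If not, the spread behind the p-values may be technical.

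The median change over all genes was 0.21, and 7374 of the 10681 had a positive change. The Sox9-null libraries thus sat slightly above the controls as a whole. Their linear values summed to 1011693 and 969734 against 879620 and 920020 in the controls. They also had more genes at log2 1, 10392 and 10350 against 9919 and 10005. The sources used here give no read depth. As deposited, 93.3% of the called genes were higher. That share was 80.2% with library medians made equal (388 higher, 96 lower) and 78.4% after quantile normalization (352 higher, 97 lower), where the median change of all genes was -0.06 and -0.08. Before deposition the means of both GFP controls of the series had been made equal gene by gene, to a median difference of 0.00425 between the wild type control and the mean of all 4 GFP libraries. The control level used here is therefore in effect that of 4 libraries from 2 experiments.

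Among 5765 genes with a control mean between log2 4 and 8, 251 were called higher and 31 lower, and of 507 genes at log2 8 or more, 5 went each way. Both control libraries were under log2 1 for 495 kept genes, which therefore passed the filter through other groups and had little room to be called lower. Of these 74 were called higher, and nothing is read from that count. The median change of the genes called higher was 1.68, with 258 above 2 and 21 above 4. That of the genes called lower was -1.82, with 19 below -2. A gene that a library did not detect is listed at a low value that differs from gene to gene, as with Cd3e at -1.72 in 10 of the 12 libraries, so a large change from a low control depends on that value.

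**Figure D1:**
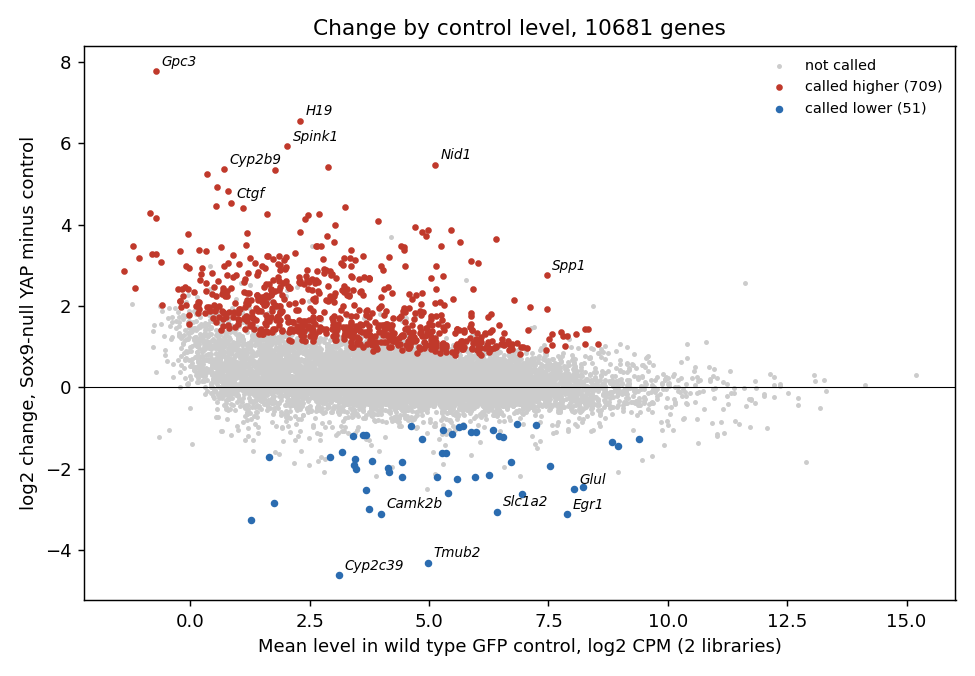
Change against control level for 10681 genes. Horizontal axis: mean log2 CPM of the 2 wild type GFP libraries; vertical axis: log2 change, Sox9-null YAP minus control; red points were called higher (709), blue points lower (51), grey points not called. Called falls reach high control levels such as Glul; at the left edge genes were kept through other groups and had little room to fall.

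The targeted genes were examined first. Sox9 (chromosome 11, 112782224 to 112787760, plus strand, GRCm38) was at 3.90 and 3.59 log2 CPM in the control libraries and at 2.28 and 2.62 in the Sox9-null YAP libraries. The groups did not overlap, which was so for 1189 kept genes with a negative and 4319 with a positive change. The difference of -1.29 ± 0.38 missed the threshold (limma adjusted p = 0.0519). It passed with library medians made equal (-1.55, adjusted p = 0.0334) and after quantile normalization (-1.68, adjusted p = 0.0235). Against the Sox9-heterozygous YAP group, at 4.41 and 5.28, Sox9 fell by 2.40 (SE 0.38, limma adjusted p = 0.0132), a call lost without the second Sox9-heterozygous library (adjusted p = 0.361) or either Sox9-null library (0.181 and 0.0713). The control level of Sox9 was low, and the sources used here do not say which exon its amplicon reads. Yap1 (chromosome 9, 7931999 to 8004596, minus strand) was at 6.64 and 6.44 in the control and at 7.45 and 8.01 in the Sox9-null YAP libraries. It rose by 1.19 ± 0.24 (limma adjusted p = 0.00556), a call lost without the second control library (adjusted p = 0.0582) and without the second Sox9-null library (0.0964). Whether the Yap1 amplicon reads the viral message is not given either. The Hippo kinase genes Stk3 and Stk4, intact in both groups, differed by -0.21 ± 0.27 and 0.11 ± 0.25 (limma adjusted p = 0.73 and 0.869), and the Stk4 difference was -0.15 under either scaling and -0.02 without the first Sox9-null library.

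The libraries carried the hepatocyte profile their label names. All 9 hepatocyte markers in the table were kept, 0 were called by limma in either direction (1 was lower at an unadjusted p under 0.05), and their median change was -0.08. Albumin, Alb, was at 14.86 and 15.53 in the control and at 16.03 and 14.97 in the Sox9-null YAP libraries. The summed linear level of the 9 was 65300 and 87100 CPM in the control and 101000 and 65600 in the Sox9-null YAP libraries. The sorted-out markers stayed low: Epcam was at 0.83 and 0.83 in the control and at 1.51 and 1.92 after YAP S127A, and Ptprc, which encodes CD45, at 0.60 and 0.57 and at 0.71 and 1.53. Bile duct keratins Krt7 and Krt19 were at or below 0.38 in all 4 libraries. Of the T and NK cell, B cell, neutrophil and erythroid lists, 3 genes in all were kept, 1 each for all but neutrophils, and none was called.

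Fetal liver and growth genes led the rises. Gpc3, a proteoglycan found in fetal liver and in liver tumours, was at -0.94 and -0.51 in the control and at 6.73 and 7.36 in the Sox9-null YAP libraries. It rose by 7.77 ± 0.46 (limma adjusted p = 2e-07), from a level near the detection floor. H19, an imprinted noncoding RNA abundant before birth, was at 2.31 and 2.31 and then at 8.23 and 9.49, a rise of 6.56 ± 0.41 (limma adjusted p = 2e-07). Spink1, a secreted trypsin inhibitor, went from 2.59 and 1.48 to 8.44 and 7.49, a rise of 5.93 ± 0.47 (limma adjusted p = 1.76e-06). Ly6d, a small surface protein, was at 4.76 and 5.2 and then at 9.57 and 8.12. In each of these genes every Sox9-null library lay above every control library by more than the gap within a group. Of 16 kept genes of the fetal liver and tumour list, 6 rose and 5 of those held. The list's median change was 0.94 beside 0.21 for all genes. Tff3, a mucosal trefoil peptide, was the single member called lower, at 3.60 and 3.75 and then at 2.70 and -0.38, and was not called without the second Sox9-null library (adjusted p = 0.552) or without either control library (adjusted p = 0.197 and 0.183).

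**Figure D2:**
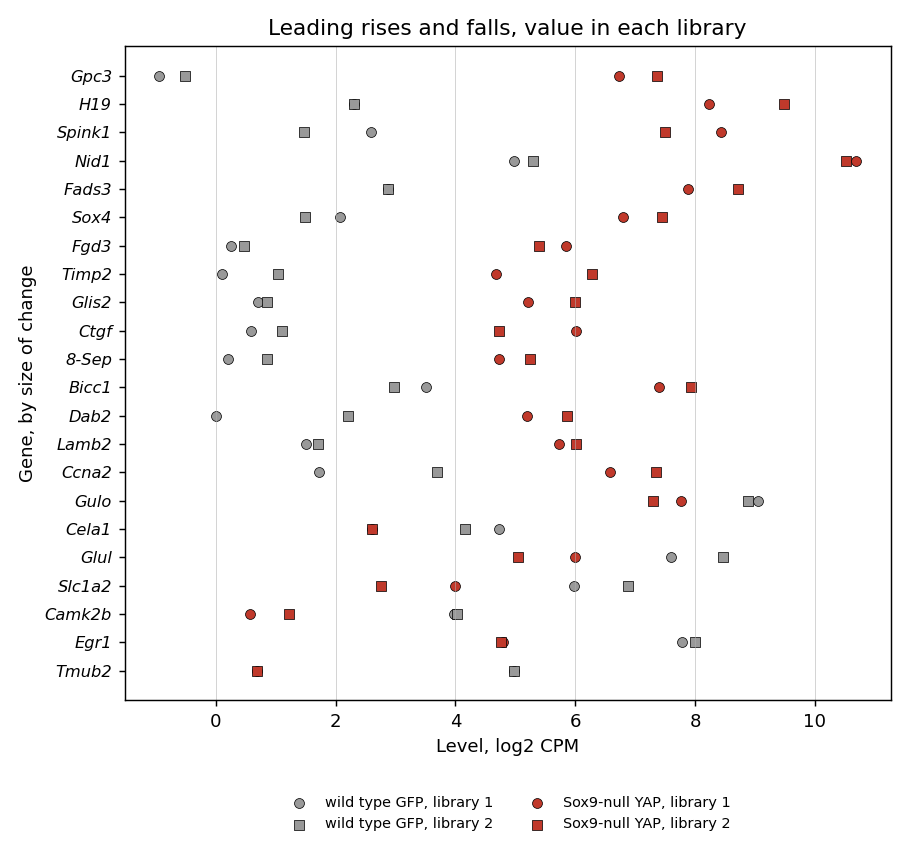
Levels of the leading rises and falls in each library. Horizontal axis: log2 CPM; each row is a gene, ordered by change; grey points are the 2 control libraries and red points the 2 Sox9-null YAP libraries, circles for the first and squares for the second. Rows run from Gpc3 (a rise of 7.77) to Tmub2 (a change of -4.31). Red and grey points stay apart in every row because genes were chosen on that.

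Among direct targets of YAP and TEAD, 13 of 21 kept genes rose and 0 fell (also 0 at an unadjusted p under 0.05), 5 of the rises held, and the median change was 1.75. The count was 5 without the first control library and 8 without any other one. Ctgf, a matricellular protein and a standard readout of YAP activity, was at 0.58 and 1.11 in the control and at 6.01 and 4.73 in the Sox9-null YAP libraries (4.53 ± 0.35, limma adjusted p = 1.56e-06). Ajuba, a scaffold that restrains the Lats kinases, went from 3.92 and 4.13 to 6.51 and 7.31, a rise of 2.88. Amotl2, which tethers YAP in the cytoplasm, went from 5.18 and 5.27 to 7.21 and 7.42, a rise of 2.09. Asap1 and Crim1 rose by 1.55 and 1.54. Cyr61, the other standard readout, was at 5.85 and 5.90 and then at 7.59 and 7.66; its change of 1.75 ± 0.43 was called (limma adjusted p = 0.0215), but not with any 1 library left out (adjusted p 0.0985 to 0.148).

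Genes of the Hippo pathway itself rose in part. Of 28 kept, 12 rose, 5 of them in all 5 fits, and 0 fell (also 0 at an unadjusted p under 0.05), with a median change of 0.76. The count was 7 without the first control library. Among the DNA-binding partners of YAP, Tead4 was at -0.12 and 0.02 in the control and at 3.22 and 4.24 in the Sox9-null YAP libraries (3.78 ± 0.52, limma adjusted p = 0.000281). Its control level was near the detection floor, and the size of the rise depends on that level. Tead1 was at 3.00 and 4.1 and then at 5.78 and 5.97, a rise of 2.33. Map4k4, a kinase that can phosphorylate Lats, was at 3.04 and 4.24 and then at 6.46 and 6.24, a rise of 2.71.

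The sequence GGAATG is the core motif that TEAD factors bind, and promoters of genes that rose were searched for it on both strands (its reverse complement is CATTCC). Each window ran from 250 bases before to 50 bases after the transcript start (RefSeq, GRCm38.p6). A match was present in 19.2% of the 551 genes called higher that had a window, in 26.5% of 34 called lower, in 14.2% of 8588 kept genes and in 14.7% of all 32851 windows. The largest rises with a match were Nid1, Sox4, Dab2 and Flna. The bases before the start are shown for Nid1 (chr13:13437352-13437601, plus strand, match 165 bases before the start), Sox4 (chr13:28953700-28953949, minus strand, 168 bases before) and Flna (chrX:74246535-74246784, minus strand, 146 bases before), with the match in capitals, because these are the strongest rises in which the motif sits upstream. In Dab2 the match lies 21 bases after the start and is not shown. A match is a run of letters and not a measured binding site.
Nid1: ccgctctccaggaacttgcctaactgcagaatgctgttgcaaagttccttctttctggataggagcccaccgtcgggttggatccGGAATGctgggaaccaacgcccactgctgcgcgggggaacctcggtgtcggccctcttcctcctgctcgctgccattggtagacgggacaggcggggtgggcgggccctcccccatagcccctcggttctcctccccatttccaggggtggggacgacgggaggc
Sox4: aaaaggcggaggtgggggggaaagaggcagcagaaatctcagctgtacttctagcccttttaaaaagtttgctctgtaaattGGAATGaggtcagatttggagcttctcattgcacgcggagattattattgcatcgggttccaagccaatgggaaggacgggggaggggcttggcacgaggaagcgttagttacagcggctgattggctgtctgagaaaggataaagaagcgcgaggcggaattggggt
Flna: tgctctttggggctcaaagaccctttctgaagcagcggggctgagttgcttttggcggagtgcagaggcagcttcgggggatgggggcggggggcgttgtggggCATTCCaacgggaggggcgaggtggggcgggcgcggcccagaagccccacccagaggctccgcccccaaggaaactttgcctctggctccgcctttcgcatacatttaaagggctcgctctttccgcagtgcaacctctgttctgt

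Genes of mitosis formed the list with the most calls. Of 38 kept genes that act in G2 and mitosis, 33 rose and 0 fell, against 6.64% called higher among all genes, and 15 rises held. At an unadjusted p under 0.05 all 38 were higher. The median change was 2.33. Without the first control library 17 were called, and without any other one 22 to 30. Ccna2, cyclin A2, was at 1.72 and 3.69 in the control and at 6.58 and 7.34 in the Sox9-null YAP libraries, a rise of 4.26 ± 0.51 (limma adjusted p = 8.01e-05). Racgap1, needed for cytokinesis, was at 1.82 and 2.78 and then at 5.68 and 6.54 (3.81). Cdc20, an activator of the anaphase-promoting complex, was at 1.90 and 4.12 and then at 6.63 and 6.51 (3.56). Top2a, a topoisomerase of dividing cells, was at 2.92 and 2.54 and then at 6.38 and 6.0 (3.46). The proliferation marker Mki67 was at 2.54 and 4.19 and then at 6.76 and 6.74 (3.38). The first control library was the lower of its group in 4 of these 5 genes, all but Top2a.

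Fewer genes of G1, S phase and replication passed. Of 36 kept, 9 rose, 3 held, and 1 was called lower, with a median change of 0.97. Rises numbered 4 without the first control library and 5 without the second Sox9-null library. Ccnd1, cyclin D1, was at 4.88 and 4.54 and then at 8.46 and 8.84, a rise of 3.94 ± 0.37 (limma adjusted p = 8.67e-06). Rrm2, the small subunit of ribonucleotide reductase, was at 3.74 and 3.02 and then at 6.0 and 6.19 (2.71). Uhrf1, which maintains DNA methylation at replication, was at 1.35 and 1.06 and then at 3.73 and 4.30 (2.81). The gene called lower was the replication factor Mcm10 (-2.20), which was not called with any 1 library left out (adjusted p 0.0571 to 0.303). Inhibitors of cyclin-dependent kinases and p53 targets had 6 of 22 called higher and 1 lower, and 1 and 0 without the second Sox9-null library. The gene called lower was Gdf15 (-1.84), which was not called without the second control library (adjusted p = 0.227) or the second Sox9-null library (0.333). The member that held was Cdkn2c, an inhibitor of Cdk4 and Cdk6, at 3.11 and 3.94 and then at 5.36 and 5.47 (1.89 ± 0.29, limma adjusted p = 0.000747).

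**Figure D3:**
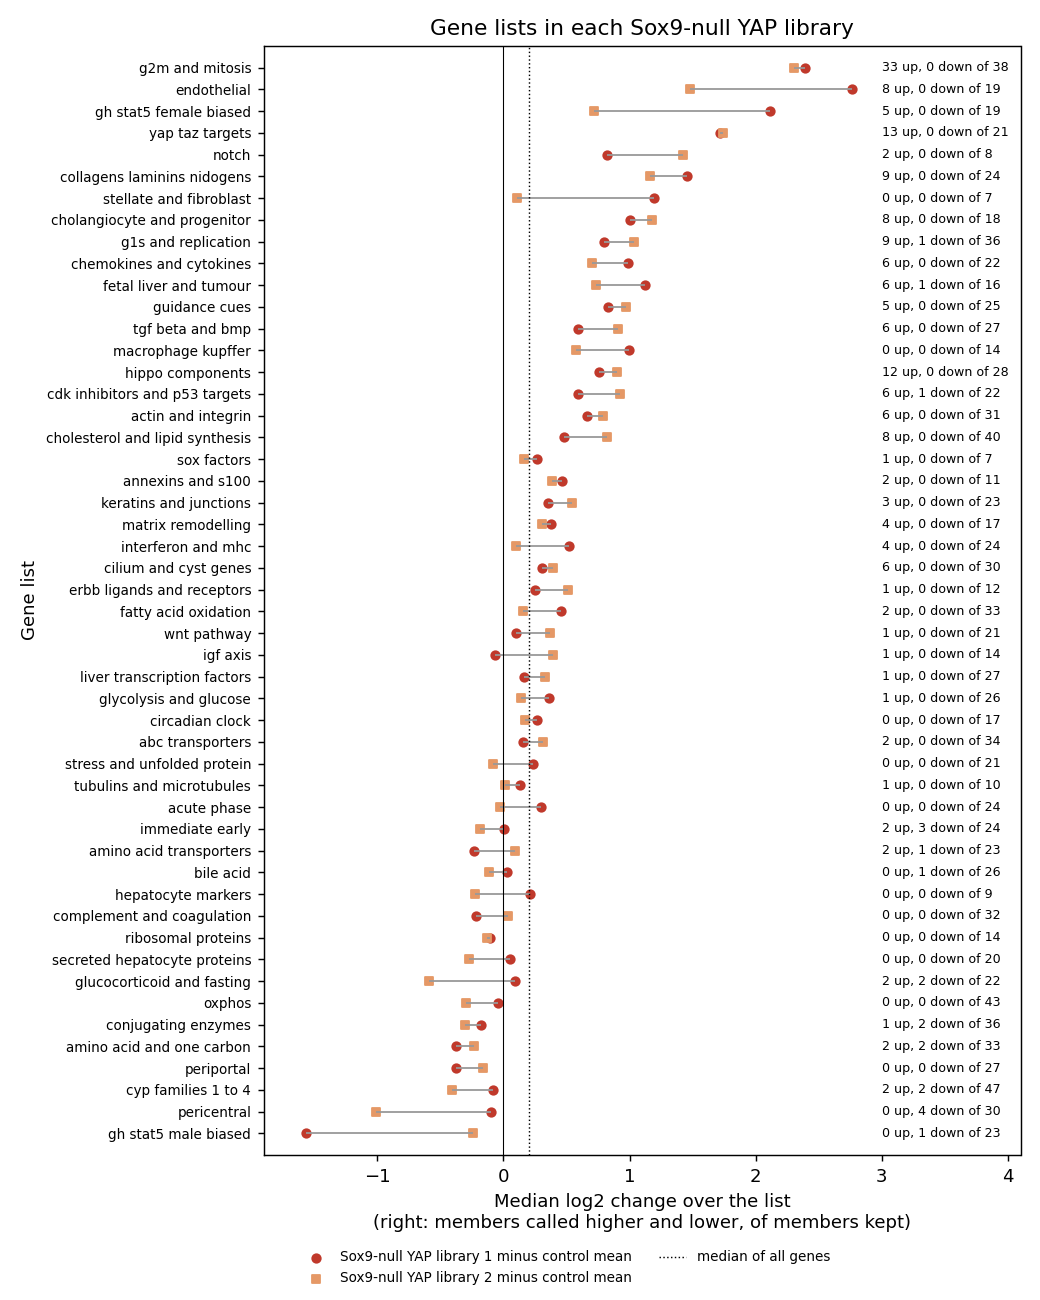
Median change of the reported gene lists with at least 5 kept members, in each Sox9-null YAP library. Horizontal axis: median log2 difference from the control mean over the kept members; circles are the first and squares the second Sox9-null library, the dotted line is the median of all genes (0.21), and the text gives members called. Mitosis and YAP target genes sit alike in both libraries, while male-biased, female-biased, endothelial and pericentral genes differ between them.

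Bile duct and progenitor genes split by member. Of 18 kept, 8 rose, 5 of those held, and 0 were called lower (1, Sox9, at an unadjusted p under 0.05), with a median change of 1.0, and 5 were called without the first control library. Sox4, a Sox family factor of progenitor cells, was at 2.07 and 1.49 in the control and at 6.80 and 7.45 in the Sox9-null YAP libraries (5.35 ± 0.37, limma adjusted p = 5.18e-07), and its promoter is shown above. Bicc1, an RNA-binding protein mutated in cystic disease, was at 3.50 and 2.97 and then at 7.40 and 7.93 (4.43). Pkhd1, the fibrocystin gene of polycystic liver and kidney disease, was at 4.02 and 3.21 and then at 7.11 and 6.58 (3.23). Slc5a1, a sodium-glucose transporter, was at 2.0 and 2.0 and then at 4.73 and 5.68 (3.20). Spp1, osteopontin, was at 8.16 and 6.78 and then at 10.28 and 10.15 (2.75 ± 0.38, limma adjusted p = 0.0003). Of 26 listed genes in the table, 8 lay under log2 1 in all 4 libraries. Keratins Krt8 and Krt18, which hepatocytes also make, were not called, at 8.42 and 8.96 against 9.05 and 9.03 for Krt8. Among 7 kept Sox factors Sox4 was the only one called. The transcription factor Glis2, whose loss causes a kidney cyst disease, was at 0.71 and 0.86 and then at 5.21 and 5.99 (4.82 ± 0.50, limma adjusted p = 2.13e-05). Cilium and cyst genes had 6 of 30 called, 3 of which held (Glis2, Bicc1 and Pkhd1). The count was 3 without the first control library or the second Sox9-null library, and the median of 0.31 turned to -0.06 after quantile normalization.

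Basement membrane genes rose with large effects in a few members. Of 24 kept collagens, laminins and nidogens, 9 rose, 4 held and 0 fell (also 0 at an unadjusted p under 0.05), and the median change was 1.08. The count was 5 without the first control library and 5 without the first Sox9-null library. Nid1, nidogen, which links laminin to collagen IV, was at 4.97 and 5.29 in the control and at 10.68 and 10.51 in the Sox9-null YAP libraries (5.47 ± 0.42, limma adjusted p = 1.56e-06). The laminin chain gene Lamb2 was at 1.5 and 1.71 and then at 5.73 and 6.02 (4.27). Lama5 was at 3.03 and 2.82 and then at 5.62 and 5.93 (2.85), and Lamc1 at 4.72 and 4.88 and then at 6.85 and 6.49 (1.87). Together these encode an alpha, a beta and a gamma chain, the 3 kinds that make a laminin trimer. Of 17 kept genes of matrix remodelling 4 rose and 3 held: Timp2, an inhibitor of metalloproteinases (4.92), and the secreted proteases Adamts5 (4.28) and Adamts1 (1.82). Timp2 was at 0.10 and 1.03 and then at 4.68 and 6.28.

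Endothelial markers moved with this comparison too. All 19 kept markers had a positive change, beside 7374 of all 10681 genes. Of the 19, 8 rose, 3 held (Lyve1, Flt4 and Cdh5), and the median change was 2.15. Their levels were low: the 20 markers in the table summed to 39.9 and 98.3 CPM in the control and to 411 and 214 in the Sox9-null YAP libraries. Lyve1, a receptor of sinusoidal endothelium, was at 0.63 and 0.79 and then at 3.95 and 3.46 (2.99 ± 0.35, limma adjusted p = 5.84e-05). Without the first control library 3 were called and without the first Sox9-null library 4, against 10 and 9 without the other control or Sox9-null library. The median change was 2.76 in the first Sox9-null library and 1.48 in the second. Of 14 kept macrophage markers and 7 of stellate cells and fibroblasts limma called 0 (2 and 1 were higher at an unadjusted p under 0.05), with medians of 0.76 and 1.03. Macrophage markers summed to 43.4 and 104 CPM and to 147 and 92.0. Cells of another type and RNA per cell cannot be told apart in bulk libraries. The part of endothelial RNA in the rises of matrix genes, many of which endothelial cells also express, was not tested.

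Actin and integrin genes had a few large rises. Counts of rises in this paragraph stand beside 6.64% called higher among all genes. Flna, the actin crosslinker filamin A whose promoter is shown above, was at 3.91 and 3.97 in the control and at 8.08 and 7.99 in the Sox9-null YAP libraries (4.1 ± 0.37, limma adjusted p = 5.89e-06). All 31 kept actin and integrin genes had a positive change, beside 7374 of all 10681 genes. Their median change was 0.69, and 0.43 with library medians made equal. Of the 31, 6 rose and 3 held. The count was 3 without the first control library or the second Sox9-null library. The other 2 that held were Tmsb4x, an actin-sequestering peptide (2.34), and Tagln2, an actin-binding protein (2.28). Fgd3, a guanine nucleotide exchange factor, was at 0.26 and 0.47 and then at 5.84 and 5.39 (5.25 ± 0.48, limma adjusted p = 8.11e-06). Of 10 kept tubulin and microtubule genes 1 was called, Tubb6, a beta-tubulin, at 4.25 and 5.40 and then at 6.89 and 6.87 (2.06), and it held. Of 11 annexin and S100 genes 2 rose. Anxa2, a membrane-binding annexin, was at 5.74 and 5.55 and then at 9.85 and 8.59 (3.58 ± 0.40, limma adjusted p = 4.23e-05) and held. Anxa5 (1.93) was not called without the first control library (adjusted p = 0.0946) or the first Sox9-null library (0.0848). Of 23 keratin and junction genes 3 were called higher, Dsp, Cgn and Tjp1, and none held. That count was 0 without the second Sox9-null library and 1 without any other one.

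Genes for signals between cells had from 1 to 6 rises a list, where 6.64% of all genes were called higher. A single call in a list of this size is near that share, and nothing is read about the list from it. Nrg1, neuregulin, a ligand of ErbB receptors, was at 2.41 and 2.41 in the control and at 6.74 and 6.35 in the Sox9-null YAP libraries (4.13 ± 0.35, limma adjusted p = 3.36e-06), and it was the only one of 12 kept ErbB ligands and receptors called. Of 8 kept Notch genes 2 rose, all 8 changes were positive (beside 7374 of all 10681 genes) and the median was 1.12. The Notch count was 1 without either Sox9-null library. Jag1, a Notch ligand, was at 2.74 and 2.60 and then at 4.74 and 5.76 (2.58) and held. Hes1, a Notch target (2.21), was not called without the second control library (adjusted p = 0.133) or either Sox9-null library (0.102 and 0.0749). Nrp2, a co-receptor for semaphorins and vascular growth factors, was at 2.99 and 3.06 and then at 6.89 and 7.15 (3.99), and was the member that held among 5 of 25 guidance genes called. The guidance count was 2 without the second Sox9-null library. Igfbp7, a secreted binding protein of the insulin-like growth factor family, was at 1.76 and 3.18 and then at 6.64 and 6.79 (4.24 ± 0.61, limma adjusted p = 0.000462), the single call among 14 of its list. Of 27 TGF-beta and BMP genes 6 rose and 2 held, the ligand gene Bmp4 (2.63) and the BMP target Id1 (2.72). That count was 3 without the first control library and 2 without the second Sox9-null library.

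Of 22 chemokine and cytokine genes 6 rose and 4 held. Csf1, the growth factor of macrophages, was at 4.29 and 4.01 in the control and at 6.64 and 6.61 in the Sox9-null YAP libraries (2.47 ± 0.24, limma adjusted p = 1.01e-05). The membrane-bound chemokines Cx3cl1 and Cxcl16 rose by 2.54 and 2.26, and Tnfrsf12a, the receptor of TWEAK, by 1.74. Ifit2, an interferon-induced gene, was at 1.56 and 1.56 and then at 4.11 and 4.87 (2.94), and was the one that held of 4 called among 24 interferon and MHC genes. Without the first Sox9-null library 1 of those was called, and without either control library 2.

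Immediate early genes went in both directions. Egr1, a zinc-finger factor induced by growth signals, was at 7.78 and 8.00 in the control and at 4.79 and 4.76 in the Sox9-null YAP libraries. It fell by 3.11 (SE 0.29, limma adjusted p = 8.76e-06), with a gap between groups far wider than that within them. Fos was at 5.24 and 6.68 and then at 3.69 and 3.85. Its change of -2.19 was called (limma adjusted p = 0.00676) but lost that call without the second control library (adjusted p = 0.11) and without either Sox9-null library (0.0634 and 0.06). Klf6 and Myc rose by 1.78 and 1.68 and held. Of 24 kept genes 2 rose and 3 were called lower, and 1 to 2 were called lower with 1 library left out, 1 of them without either Sox9-null library.

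Genes of the hepatocytes around the central vein were called lower or not at all. Of 30 kept pericentral genes 0 rose, also at an unadjusted p under 0.05, and 4 were called lower (against 0.477% called lower among all genes), 3 held, and the median change was -0.80. Glul, glutamine synthetase, was at 7.60 and 8.47 in the control and at 6.0 and 5.05 in the Sox9-null YAP libraries (-2.51 ± 0.32, limma adjusted p = 0.000158). Slc1a2, the glutamate transporter of the same cells, was at 5.98 and 6.88 and then at 4.00 and 2.76 (-3.05 ± 0.48). Gulo, which makes vitamin C, was at 9.05 and 8.89 and then at 7.77 and 7.29 (-1.44 ± 0.25). The Wnt targets Axin2 and Lgr5 differed by -1.08 and -1.29 and were not called (limma adjusted p = 0.221 and 0.19). The median over the list was -0.10 in the first Sox9-null library and -1.01 in the second. Several P450 genes differed in the second library only, such as Cyp2e1 at 11.71 and 11.26 in the control and at 11.90 and 9.29 in the Sox9-null YAP libraries. Without the first Sox9-null library 7 of the 30 were called lower.

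Genes that differ between male and female liver separated the Sox9-null libraries, and the control libraries also differed in them. The kept female-biased genes summed to 300.9 and 1364 CPM in the control and to 2583 and 554.9 in the Sox9-null YAP libraries. The kept male-biased genes summed to 20600 and 12970 and to 6219 and 10020. Of 19 kept female-biased genes 5 were called higher and none held, and the median change was 1.83. Of 23 male-biased genes 1 was called lower and did not hold, and the median change was -0.98. The female-biased median was 2.11 in the first Sox9-null library and 0.72 in the second, and the male-biased median -1.56 and -0.24. Cyp2b9, a female-biased P450, was at 0.13 and 1.30 in the control and at 8.40 and 3.76 in the Sox9-null YAP libraries. Its change of 5.36 ± 1.41 was called (limma adjusted p = 0.031) but not without the first Sox9-null library (adjusted p = 0.296), the first control library (0.223) or the second (0.0884). Mup21, a male-biased urinary protein, was at 5.70 and 4.20 and then at 0.60 and 4.31 (not called, limma adjusted p = 0.0918). Cyp7b1, a male-biased oxysterol hydroxylase and the one male-biased gene called lower, was at 7.19 and 6.70 and then at 3.35 and 5.32, a change of -2.61 (limma adjusted p = 0.00478). It lost the call without the first control library (adjusted p = 0.0744) or the first Sox9-null library (0.077). Female-biased genes called higher numbered 1 without the first control library and 3 without the first Sox9-null library, and male-biased genes called lower numbered 7 without the second Sox9-null library. The sex chromosome genes did not separate the libraries. Xist, made in female cells, was at 1.14 in all 4 libraries, and the Y-linked gene Ddx3y was at 5.70 and 5.40 in the control and at 5.14 and 4.62 in the Sox9-null YAP libraries.

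**Figure D4:**
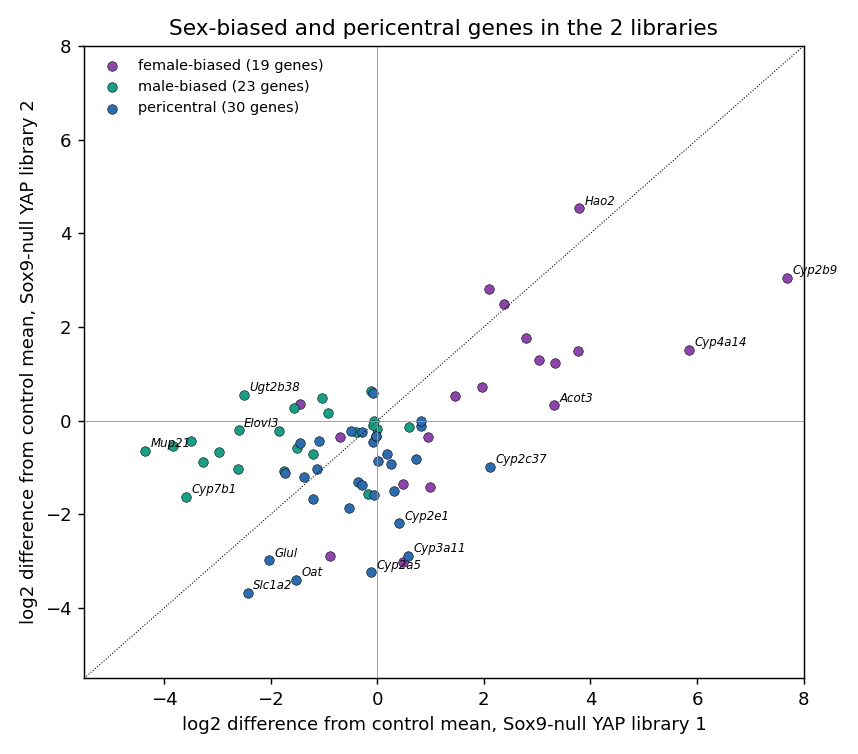
Female-biased (19), male-biased (23) and pericentral (30) genes in the 2 Sox9-null YAP libraries. Horizontal and vertical axes: log2 difference of the first and of the second library from the control mean; each point is a gene, and the dotted line marks equal differences. Sex-biased genes such as Cyp2b9 (8.40 and 3.76 log2 CPM) lie farther from 0 in the first library, and P450 genes such as Cyp2e1 (11.90 and 9.29) in the second.

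Most other liver functions had few calls. The 43 kept genes of oxidative phosphorylation, 14 of ribosomal proteins, 20 of secreted hepatocyte proteins, 32 of complement and coagulation, 27 periportal, 24 acute phase and 17 circadian genes had 0 calls in limma. At an unadjusted p under 0.05 these lists had 0 to 5 lower and 0 to 2 higher members each. Medians ran from -0.24 (periportal) to 0.23 (circadian), beside 0.21 for all genes. That of oxidative phosphorylation was -0.19, with 36 of 43 changes negative. After quantile normalization, where the median of all genes was -0.08, the periportal median was -0.35 and that of oxidative phosphorylation -0.38. Among 47 P450 genes of families 1 to 4, 2 were called higher and 2 lower. Cyp2c39 held, at 2.36 and 3.85 in the control and at -0.39 and -2.62 in the Sox9-null YAP libraries (-4.61 ± 0.72, limma adjusted p = 0.000924). The sources used here do not say how reads of near-identical copies in the Cyp2c, Cyp4a and Mup families were assigned. P450 genes called higher numbered 0 without the first control or the first Sox9-null library and 4 without the other control or Sox9-null library, and those called lower 2 to 5. Of 40 genes of cholesterol and lipid synthesis 8 rose and 2 held, with a median change of 0.65. The lipid count was 2 to 5 with 1 library left out (3 and 5 without the first and second control library, 4 and 2 without the first and second Sox9-null library). Fads3, of the fatty acid desaturase family, was at 2.88 and 2.88 and then at 7.88 and 8.72 (5.42 ± 0.37, limma adjusted p = 5.18e-07), and Scd2, a desaturase more active in fetal than in adult liver, rose by 2.63. Single members of other lists that held were Slc38a4, an amino acid transporter (3.10), Vnn1, pantetheinase, a PPARA target (2.99), and the drug and anion efflux pumps Abcb1a (3.17) and Abcc5 (2.23).

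The remaining metabolic and regulatory lists had 0 to 4 calls each. Of 36 conjugating enzymes 1 rose and 2 were called lower. Mgst3, a microsomal glutathione transferase, was at 4.50 and 5.25 and then at 6.95 and 6.48 (1.84) and held. Sult5a1, a sulfotransferase (-2.84), was called without the second Sox9-null library and not without any other one (adjusted p 0.0752 to 0.11). Nnmt, which methylates nicotinamide (-2.25), was not called without the second control library (adjusted p = 0.0846) or the second Sox9-null library (0.0771). Of 22 genes of glucocorticoid and fasting responses 2 were called higher, Fgf21 and Ppargc1a, and 2 lower, Ddit4 and Gadd45g, and all 4 lost the call without the second Sox9-null library (adjusted p = 0.121, 0.0577, 0.114 and 0.24). Without the second control library Fgf21, Ddit4 and Gadd45g lost it too (0.185, 0.132 and 0.18), and Fgf21 without the first Sox9-null library (0.0873). Of 33 genes of amino acid and one-carbon metabolism 2 were called higher and 2 lower (Glul and Oat), of which Glul held. Higher calls there numbered 0 without the second control library or the first Sox9-null library and 1 without the other control or Sox9-null library, and lower calls 1 without the second library of either group. Of 23 amino acid transporters 2 were called higher and 1 lower, 2 of 34 ABC transporters rose and 2 of 33 genes of fatty acid oxidation. Amino acid transporters called higher numbered 1 with any library but the second control left out, and fatty acid oxidation genes 1 without the first Sox9-null library.

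Single calls that did not hold were Fzd7 among 21 Wnt genes, Cux2 among 27 liver transcription factors, Pkm among 26 genes of glucose metabolism and Cyp7b1, the one gene called lower, among 26 of bile acid metabolism. Fzd7 (1.16) lost the call without the second control library (adjusted p = 0.15) or the second Sox9-null library (0.175). Cux2 (2.46) lost it without either control library (0.0663 and 0.0557) or the second Sox9-null library (0.112). Pkm (2.26) lost it without the first control library (0.342) or either Sox9-null library (0.148 and 0.124). Of 21 genes of stress and protein folding limma called 0 (3 were higher at an unadjusted p under 0.05). The medians of these 4 lists with single calls were 0.27, 0.23, 0.23 and -0.01.

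Tmub2, which encodes a membrane protein with a ubiquitin-like domain, gave the largest fall among genes at log2 4 or more. It lies on chromosome 11 (102284931 to 102289237, plus strand, GRCm38), 10.5 Mb from Sox9. It was at 4.98 and 4.98 in the control and at 0.68 and 0.68 in the Sox9-null YAP libraries (-4.31 ± 0.27, limma adjusted p = 2e-07). It was at 5.13 and 4.72 in the Sox9-heterozygous YAP group. In the other experiment it was at 0.62 and 0.40 in the Sox9-null group and between 4.89 and 5.11 in the 4 remaining libraries. Tmub2 was therefore low in the 4 Sox9-null libraries of the series and in none of the other 8. Ube2o, a ubiquitin ligase 3.8 Mb from Sox9, was at 3.84 and 3.08 in the control and at 1.52 and 1.42 in the Sox9-null YAP libraries (-2.0 ± 0.33, limma adjusted p = 0.00133), but at 3.8 and 3.29 in the Sox9-null Mst group. Camk2b, a kinase subunit, is also on chromosome 11 but at 5969644 to 6066362, farther than 20 Mb from Sox9. It was at 3.98 and 4.03 and then at 0.57 and 1.23 (-3.10 ± 0.36), and at 0.87 and 1.54 in the Sox9-heterozygous YAP group. On chromosome 11 as a whole 71 of 867 kept genes were called (8.19%, against 7.12% of all). Within 20 Mb of Sox9 the other genes that held had risen: Timp2, Top2a, Myo15b, Ptrf, Pcgf2, Jup and Tanc2, by 1.75 to 4.92.

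**Figure D5:**
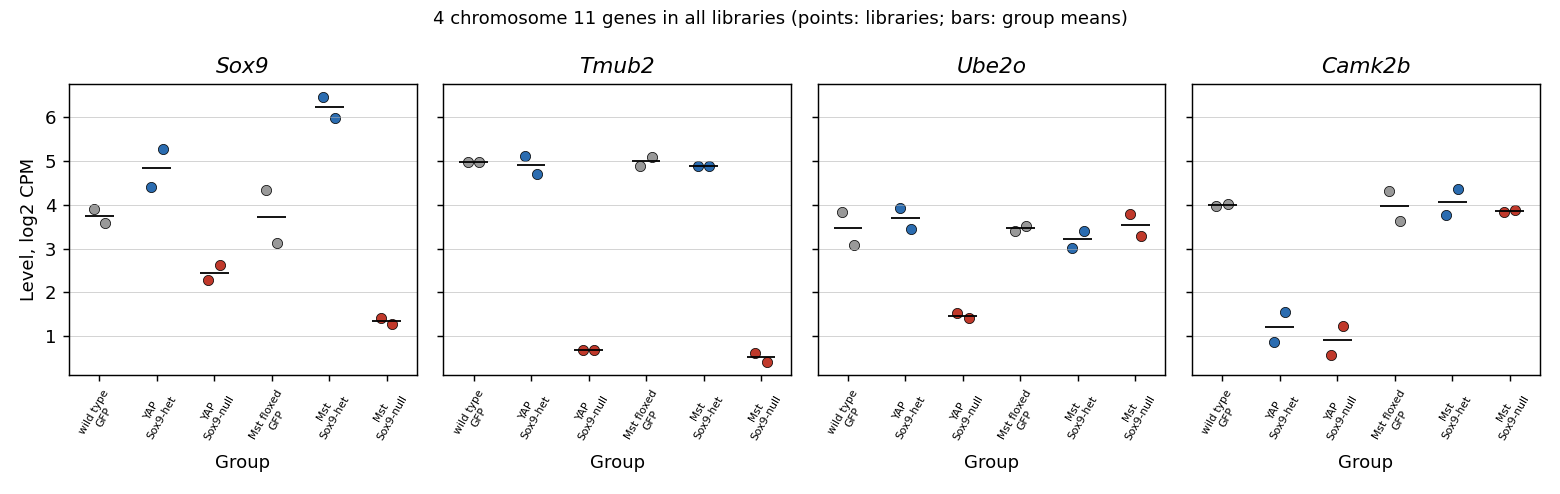
Levels of 4 chromosome 11 genes in all 12 libraries. Horizontal axis: the 6 groups of 2 libraries; vertical axis: log2 CPM; points are libraries and bars group means. Tmub2 is near 0.5 only in the groups named Sox9-null, Ube2o is low only in the Sox9-null YAP group, and Camk2b is low in both YAP groups.

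The other falls were of single genes. Cela1, an elastase, was at 4.72 and 4.16 in the control and at 2.60 and 2.60 in the Sox9-null YAP libraries (-1.84 ± 0.30, limma adjusted p = 0.00133). Among the rises outside any list above were Dab2, an endocytic adaptor (0.00 and 2.21, then 5.19 and 5.86; 4.42 ± 0.50), and a row whose symbol had been turned into a date, 8-Sep (0.21 and 0.86, then 4.72 and 5.25). The gene behind that row was not resolved; 17 kept rows have such symbols.

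Whether the comparison differs from the same one with 1 Sox9 allele was tested by setting the Sox9-null against the Sox9-heterozygous YAP group. Of 10681 genes 18 were called (0.169%), 12 higher (0.112%) and 6 lower (0.0562%) in the Sox9-null group. The count was 128 without the first Sox9-heterozygous library, 4 without the second, and 7 without either Sox9-null library. Of the 18, 14 were also called against the control, which shares the Sox9-null libraries. Of the 18, 4 were called with any 1 of the 4 libraries of this test left out: Vamp2, 2610507I01Rik, Tmub2 and Egr1. The first pair, named after their values were seen, gave the largest differences and were not called against the control. Vamp2, a vesicle fusion protein, was at 3.88 and 2.87 in the control, at -0.81 and -0.93 with 1 Sox9 allele and at 3.56 and 4.52 with none (4.92 ± 0.53, limma adjusted p = 0.000366). The uncharacterised gene 2610507I01Rik was at 3.07 and 2.31, at -1.74 and -1.74 and at 2.46 and 3.35 (4.65 ± 0.45, limma adjusted p = 0.000132). In both genes the Sox9-heterozygous libraries were the low ones. In the Mst experiment Vamp2 was at 2.53 and 4.14 in the GFP control. It was at 2.21 and 1.96 in the Sox9-heterozygous and at 6.27 and 4.92 in the Sox9-null libraries there. For 2610507I01Rik these levels were 2.12 and 3.18, 1.98 and 1.89, and 5.48 and 4.51. In the other direction Tmub2 fell by 4.24 (SE 0.27, limma adjusted p = 5.48e-07) and Egr1, at 7.79 and 7.11 in the Sox9-heterozygous group, by 2.68 (SE 0.29, limma adjusted p = 0.000366). H19 was at 5.86 and 6.21 with 1 Sox9 allele and at 8.23 and 9.49 with none, a difference of 2.83 ± 0.41 (limma adjusted p = 0.00709), not called without the second Sox9-heterozygous library (adjusted p = 0.11) or the second Sox9-null library (0.104). Csf1 was at 5.0 and 4.69 and at 6.64 and 6.61 (1.78 ± 0.24, limma adjusted p = 0.00357), called without the first Sox9-heterozygous library but not without any of the other 3 (adjusted p 0.0594 to 0.0794). G0s2, an inhibitor of lipolysis, differed by 2.29 and Pcolce, an enhancer of collagen processing, by 2.02 (limma adjusted p = 0.0317 and 0.0206), and both were called without the first Sox9-heterozygous library but not without any of the other 3 (adjusted p 0.0691 to 0.669 and 0.126 to 0.278). Of the 38 mitosis genes limma called 0 in this test, 15 were higher at an unadjusted p under 0.05, and the median difference was 0.87, beside 0.15 for all genes. Of the 21 YAP targets it called 0, with 4 at the unadjusted threshold and a median of 0.74. Most leading genes of the comparison were not called here. Ctgf was at 5.19 and 5.48 with 1 Sox9 allele, within the range of the Sox9-null libraries, a difference of 0.04 ± 0.35. Nid1 was at 9.45 and 8.28, a difference of 1.74 ± 0.42 (limma adjusted p = 0.205), and Gpc3 at 6.02 and 4.34, a difference of 1.86 ± 0.46 (limma adjusted p = 0.205). Flna was at 6.45 and 6.46 (1.58 ± 0.37, limma adjusted p = 0.172). A difference that misses the threshold with 2 libraries a group does not show that 1 and 0 alleles act alike.

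The change after Mst1/2 deletion in Sox9-null cells, which has its own GFP control, was then set against the change under YAP S127A. The test of the difference between both changes called 29 of 10681 genes (0.272%), 12 with a higher change under YAP S127A (0.112%) and 17 with a lower one (0.159%), and 20 of these were also called in the comparison here. Because the control means had been made equal, this test in effect compares the Sox9-null groups with each other. These groups come from separate experiments and were sorted at different times after injection, and the effect of that time was not tested. A gene that misses the threshold with 2 libraries a group is not thereby shown to change alike in both. The number called ran from 7 without a variance trend to 588 with the deviations before rescaling. The count was 14 without the first wild type library, 15 without the first GFP library of the Mst experiment and 14 without the first Sox9-null Mst library. Egr1 gave a large difference, at 8.86 and 8.48 in the Sox9-null Mst group where it was at 4.79 and 4.76 under YAP S127A (-4.00 ± 0.42, limma adjusted p = 0.00048).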

How the data were processed

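Messenger RNA of FACS-sorted mouse hepatocytes was read with the Ion AmpliSeq mouse transcriptome panel, per the labels' protocols. The values are log2 CPM as the authors deposited them (the labels call the scale RPM). For aligner, counter and genome build: not given in the sources used here. Deposited values carry later steps found in the table: control means made equal, and deviations within groups multiplied by 1 factor per gene (median 1.58, found for 14750 genes), which bears on every p-value. Undoing that step lowered the median within-group SD from 0.288 to 0.187.

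Groups were taken from the labels. Group means over 12 libraries in 6 groups were fitted to 10681 genes with limma 3.58.1 (R 4.3.3), using a variance trend and two-sided tests, called at a Benjamini-Hochberg adjusted p under 0.05. The code was tested on simulated data. With 2 libraries a group, their number limits the precision, since read depth is not given.

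Members and the 55 gene lists were chosen with earlier results of these data known. Lists are described by their counts of calls, most with medians; 1 list, the genes named only through it and single members of other lists are not reported here. Genes named are Sox9, Yap1, Stk3 and Stk4; the 15 largest rises and falls among genes called in all fits that leave out 1 of the 4 libraries, whose higher group averaged log2 4 or more (7 falls met this); up to 5 such members of each list in each direction; up to 5 genes a direction in each test of a difference; and such genes within 20 Mb of Sox9. Other members are given as values. Alternatives changed scaling, the filter, the pseudocount, the variance trend, the libraries fitted, the rescaling and the replicate block. Positions are from GENCODE M21 (GRCm38) and promoters from RefSeq (GRCm38.p6).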

Additional observations from a re-analysis of the deposited data

Results flagged for a closer look

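For 10 genes called in the comparison, the change under YAP S127A without Sox9 differed from the change after Mst1/2 deletion without Sox9 in the test of that difference itself (limma, adjusted over 10681 genes). Because control means had been made equal, each value is close to the difference between the Sox9-null groups. These groups come from separate experiments and were sorted at different times after injection, and the effect of that time was not tested.

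Lower under YAP S127A were Ntrk2, a neurotrophin receptor, by -6.36 (1.36 and 2.95 log2 CPM against 8.67 and 8.24 in the Sox9-null Mst libraries, limma adjusted p = 0.000549), and Fam171b by -5.39 (-1.85 and -2.16 against 3.66 and 2.86). Gdf15, a stress-induced cytokine, differed by -4.05 (5.72 and 4.06 against 9.13 and 8.70). Egr1 differed by -4.00 and Tmem51 by -3.75 (1.40 and 1.63 against 5.43 and 5.04).

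Higher under YAP S127A were Slc34a2, a phosphate transporter, by 4.13 (4.26 and 5.05 against 0.07 and 1.0), and Cyp4a31 by 4.04 (6.05 and 5.15 against 1.93 and 1.22). Glis2 differed by 3.86 (5.21 and 5.99 against 1.99 and 1.49), Cryab, a small heat shock protein, by 3.51 (3.59 and 4.60 against 0.46 and 0.68), and Cyp39a1, an oxysterol hydroxylase, by 3.21 (7.77 and 7.21 against 4.43 and 4.15). Of the 10, Ntrk2, Fam171b, Egr1, Tmem51 and Cyp39a1 were called with any 1 of the 8 libraries left out, with adjusted p up to 0.00747, 0.0209, 0.00747, 0.0101 and 0.00747. The other 5 lost the call when some libraries were left out. Gdf15 lost it without the second wild type library (adjusted p = 0.065), Glis2 without any 1 of the 8 (0.0509 to 0.185) and Cryab most of all without the first GFP library of the Mst experiment (0.232). Slc34a2 and Cyp4a31 were highest without the first wild type library (0.211 and 0.157).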

How the results depend on the processing

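The 760 genes called against the control were 449 after quantile normalization, 484 with library medians made equal, 369 with no filter on low values, 500 with a filter at log2 4, 483 with the YAP experiment fitted alone and 297 with the compared groups alone. They were 2964 with the deviations before rescaling and 1686 with all 4 GFP libraries as the control, a setting chosen after seeing the data. With a pseudocount of 1 or 5 CPM they were 764 and 743, and without a variance trend 619. Leaving out 1 library gave 328 to 471. The 18 genes called between the Sox9-null and Sox9-heterozygous YAP groups were 5 with no filter, 28 with a pseudocount of 5 CPM, 6 without a trend, 9 with the YAP experiment alone, 4 with the compared groups alone, 486 before rescaling and 4 to 128 with 1 library left out. The 29 called in the test against the Mst experiment were 8 with no filter, 14 with a filter at log2 4, 7 without a trend, 54 with the compared groups alone, 588 before rescaling and 14 to 29 with 1 library left out. Where the number of samples fitted did not change, the cause was not tested. A fit that leaves 1 library in a group assumes that it varies like the others. Of 1526 values of named genes against the control under these settings, 1476 kept direction and call, 43 lost the call and 4 gained it. Most named genes were chosen because they were called with any 1 library left out. Their agreement under those settings was therefore fixed in advance, and nothing is read from this count. Stk4, never called, was at 0.11 and turned to -0.15 after quantile normalization and to -0.15 with medians made equal; it was between -0.02 (without the first Sox9-null library) and 0.24 with 1 library left out. The replicate numbers in the labels did not pair the compared samples: deviations of same-numbered control and Sox9-null libraries correlated at r = -0.06. In the Mst experiment, whose libraries are in the fit, same-numbered GFP and Sox9-heterozygous libraries correlated at r = -0.521. GFP and Sox9-null libraries there correlated at r = -0.315, and Sox9-heterozygous and Sox9-null libraries at r = -0.644. The cause was not tested. A fit with the replicate block called 720, 20 and 40 genes in the 3 tests. Because deviations were rescaled and control means made equal before deposition, adjusted p-values order genes within this table and depend on those steps.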

Other observations

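Of the 201 genes called in all fits that leave out 1 library, 121 belong to none of the lists above. Those named here were chosen after their values were seen, and no theme is drawn from them. Well-expressed ones included Cd63, a tetraspanin of late endosomes, at 4.33 and 4.63 log2 CPM in the control and at 7.93 and 7.92 in the Sox9-null YAP libraries (a rise of 3.45 ± 0.31). Lgals1, the lectin galectin-1, was at 4.63 and 3.68 and then at 7.78 and 6.94 (3.20). Ppl, the desmosomal linker periplakin, was at 4.43 and 5.29 and then at 8.57 and 8.78 (3.82), and Ahnak, a large scaffold protein, at 5.56 and 4.29 and then at 8.02 and 9.26 (3.71). Cd36, a fatty acid and scavenger receptor, was at 5.46 and 7.37 and then at 10.35 and 9.74 (3.64). Serpina7, thyroxine-binding globulin, was at 5.49 and 5.45 and then at 10.18 and 8.49 (3.87). Mfge8, a secreted bridge for the uptake of apoptotic cells, was at 6.28 and 5.78 and then at 8.98 and 9.18 (3.05), and App, the amyloid precursor protein, at 4.74 and 5.35 and then at 7.63 and 7.83 (2.69). The groups did not overlap in any of these 8 genes, which was so for all 760 called genes and adds nothing to the call.

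Krt4, a keratin of stratified epithelium, was at -1.71 and -0.68 in the control and at 2.01 and 2.53 in the Sox9-null YAP libraries (3.46 ± 0.53). It was at 1.21 and 2.38 in the Sox9-heterozygous YAP group and between 0.42 and -0.27 in the 4 Mst1/2-deleted libraries. These levels are low. The histone genes Hist1h1a and Hist1h2bb, whose family holds near-identical copies that reads may not separate, rose by 3.28 and 3.07 from levels under 0.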
